A study of Triticum turgidum subsp. durum with 36 samples.

Results

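Flag leaves of wild-type (WT) tetraploid durum wheat cv. Kronos were compared with those of the gpc-A1 mutant at 12 days after anthesis (DAA), a stage at which the leaves were still green in both genotypes. The comparison covers 8 of the 36 RNA-seq libraries of the series, 4 WT and 4 gpc-A1. Every genomic locus was taken whose reads numbered above 3 in 2 or more libraries of WT or of gpc-A1, which gave 70630 of the 80168 loci counted in the series. Of these, 64136 passed in both groups, 4808 in WT alone and 1686 in gpc-A1 alone.

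The gpc-A1 line carries a TILLING (chemically induced) premature stop codon in GPC-A1 and had been backcrossed to Kronos. Kronos itself holds a non-functional GPC-B1, so all plants of the comparison lacked GPC-B1 function and the gpc-A1 plants lacked any functional GPC1 gene, while the GPC2 copies were intact in both groups. The WT plants were siblings of the same backcross without the mutation. Each library came from the flag leaf of a separate greenhouse-grown plant. The series also holds both genotypes at heading (HD) and at 22 DAA, and a double mutant, gpc-A1 gpc-B2, in which a stop codon in GPC-B2 is added. These are used below only to place the 12 DAA values.

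GPC1 and GPC2 are NAC-domain transcription factors, and loss of GPC1 delays flag leaf senescence and lowers the protein, Zn and Fe content of wheat grain. During senescence, leaf proteins and metals are broken out of chloroplasts and vacuoles and loaded into the phloem. Metals move across membranes through ZIP, YSL, NRAMP, HMA, VIT and ZIFL family transporters. They travel bound to chelators such as nicotianamine, made by nicotianamine synthase (NAS), from which nicotianamine aminotransferase (NAAT) and deoxymugineic acid synthase (DMAS) make deoxymugineic acid.

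The stop codon does not have to change the RNA level, so the count of the gene does not test the genotype labels. The locus of chromosome arm 6AS whose deposited description is NAM-B1, the other name of GPC1 (contig 4397602, bases 15266 to 17686), had 3967, 5851, 3776 and 3936 normalized counts in WT replicates 1 to 4. In gpc-A1 it had 5199, 5376, 3515 and 3309. The groups overlapped, and the log2 fold change of gpc-A1 over WT was -0.01 (SE 0.21, edgeR adjusted P = 0.997). GPC-A2 on arm 2AS (bases 2618 to 5026 of the contig named in the methods) had 276.7, 323, 280.9 and 347 normalized counts in WT and 309, 554.4, 334 and 308 in gpc-A1. Its log2 fold change was 0.30 (SE 0.19, edgeR adjusted P = 0.516). Without gpc-A1 replicate 2, the library at 554.4, its remaining gpc-A1 values lay within the WT range.

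Library totals were 18581039 to 48981831 counts in WT and 15785040 to 23183918 in gpc-A1, with WT replicate 4 the deepest library of the series. The 10 loci with the most reads took 4.35 to 6.68% of the counts. The gpc-A1 libraries varied more among themselves than the WT libraries, with a biological coefficient of variation of 0.244 against 0.148. Annotated mesophyll and epidermis markers were read in each library. They come from abundant loci of this series, and no marker of grain, root or stem was at hand. They therefore do not test leaf identity. All 21 light-harvesting chlorophyll protein loci, all 10 Rubisco small subunit loci and both lipid transfer protein loci were above 0 in all 8 libraries. Their summed normalized counts ranged from 649141 to 876971 in WT and from 426990 to 854114 in gpc-A1 for the light-harvesting loci. The Rubisco small subunit sums were 154987 to 229747 and 163316 to 208827, and the lipid transfer protein sums were 16316 to 23730 and 11938 to 21325. In whole leaves, fewer cells of a type and less RNA per cell cannot be told apart.

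A locus was called differentially expressed (DE) when it passed all 4 tests of the methods, edgeR and DESeq2 at an adjusted P of 0.01 or less and 2 tests on normalized counts. Of 75375 loci tested, 342 were DE (0.454%), 223 of them lower in gpc-A1 (0.296%) and 119 higher (0.158%). All 342 met the read minimum in at least 1 of the groups, which makes 0.484% of the 70630 loci compared. The libraries of the groups did not overlap at any of the 342. The rank test of the rule all but requires this, so lack of overlap adds nothing to a call. The median log2 fold change over all loci tested was 0.01. Loci that fell did so by a median of 2.45 on the log2 scale, and those that rose had a median of 2.16. A change of 4-fold or more was seen in 146 of the lower and 66 of the higher loci, and one under 2-fold in 9 and 7. By edgeR alone 0.508% of the loci tested passed, and by DESeq2 alone 1270 (1.68%). The count changed when 1 library was left out, which also makes its group smaller, and these were not told apart. Without gpc-A1 replicates 1 to 4 the DE loci numbered 250, 241, 444 and 263. Without WT replicates 1 to 4 they numbered 237, 219, 195 and 205, and the higher loci 75, 69, 65 and 59. The lower loci numbered 130 without WT replicate 3 and 146 without WT replicate 4. They numbered 144 and 146 without gpc-A1 replicates 1 and 2, and the higher loci rose in number to 198 without gpc-A1 replicate 3. When replicate numbers were taken as blocks, 441 loci were DE, 320 of them among the 342. The loci DE in all 8 fits that each left out 1 library were 95 lower and 50 higher.

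**Figure D1:**
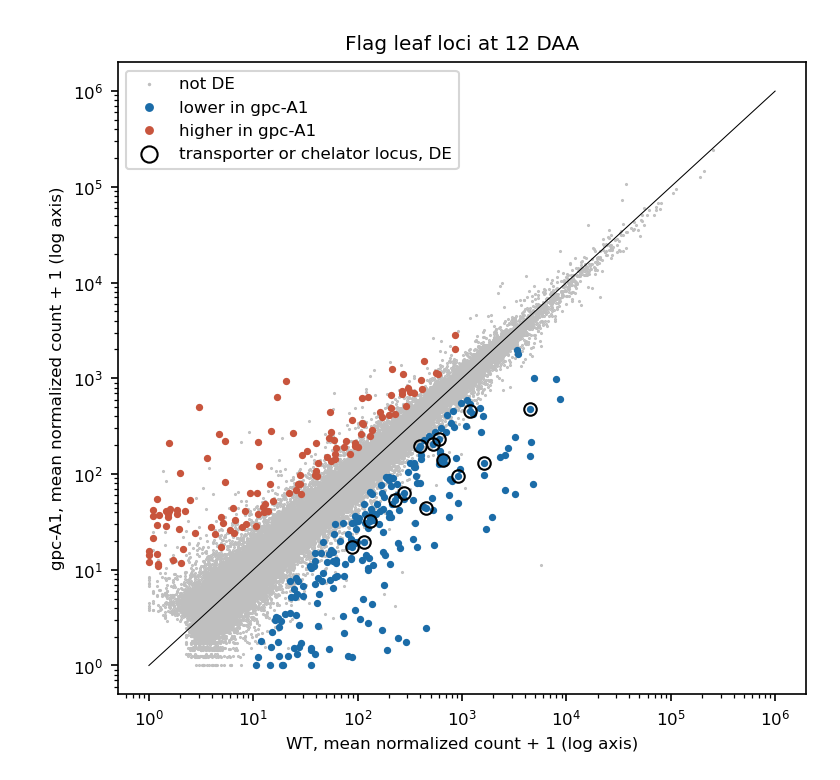
Each point is 1 locus compared, with its mean normalized count plus 1 in WT on the x axis and in gpc-A1 on the y axis, both log axes, and a line at equal levels. The 223 DE loci lower in gpc-A1 (blue) lie under the line, the 119 higher (red) above it, and circles mark the 14 DE transporter and chelator loci, all under the line.

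Of the 114 Zn and Fe transporter and chelator gene copies listed by the study, 70 could be tied to 1 locus, all of them among the loci compared. The placing used WT levels at HD and 22 DAA, so copies under 50 normalized counts in WT at both times were not placed unless an identifier matched. Of these 70 loci, 14 were DE and all 14 were lower in gpc-A1 (20.0%, against 0.296% of all loci tested). The placing favoured well-read loci. Of the 34632 loci compared with a mean of at least 50 in the higher group, 247 were DE in either direction. The median log2 fold change over the 70 was -0.22, beside 0.01 over all loci. The list spans 10 families, and the DE loci fell in 3 of them: 10 of 22 ZIP loci, 3 of 3 NAAT loci and 1 of 10 ZIFL loci. No locus of the NAS, DMAS, YSL, NRAMP, HMA, VIT or FRO families passed. Among the families with none, edgeR alone also called 0 loci and DESeq2 called 2 (TaNAS3 2AS and TaHMA1 7AL). At an unadjusted edgeR p under 0.05 they held 8 loci: 2 of 2 NAS, 3 of 15 YSL, 1 of 6 NRAMP and 2 of 6 HMA loci. The DMAS (1 locus), VIT (3) and FRO (2) families held 0 at that level, and over all loci tested the share was 14.4%.

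**Figure D2:**
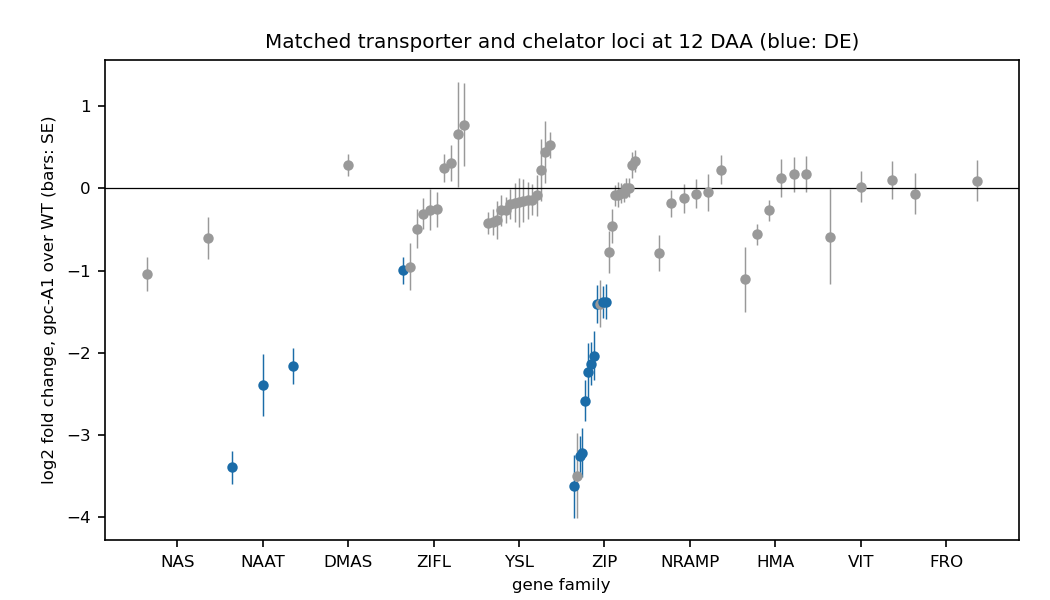
The edgeR log2 fold change (gpc-A1 over WT at 12 DAA) of each of the 70 matched loci, grouped by family, with bars of 1 SE and DE loci in blue. The 3 NAAT loci lie between -3.39 and -2.16, and the 22 ZIP loci spread from -3.63 to 0.33.

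Nicotianamine synthase makes the metal chelator nicotianamine from S-adenosylmethionine. The 2 NAS loci that could be placed were the TaNAS3 pair. TaNAS3 on 2AS had 2944, 3736, 1999 and 2097 normalized counts in WT and 1356, 1538, 1062 and 1259.6 in gpc-A1. Every gpc-A1 library was below every WT library, but the log2 fold change of -1.04 (SE 0.20) did not pass (edgeR adjusted P = 0.0244). Its 2BS copy had a mean of 5109 ± 1736 (SD, n = 4) in WT and 3349 ± 1000.0 in gpc-A1, and the groups overlapped (log2 fold change -0.60, SE 0.26, edgeR adjusted P = 0.305).

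Nicotianamine aminotransferase converts nicotianamine towards deoxymugineic acid. TaNAAT2 on 1BL had 323, 474, 415 and 601 normalized counts in WT and 48.9, 43.7, 38.1 and 42.3 in gpc-A1. The groups were far apart and the gpc-A1 libraries close together, at 10.5-fold lower (log2 fold change -3.39, SE 0.20, edgeR adjusted P = 2.55e-06). TaNAAT2 on 1AL had 241, 266.6, 283 and 328 in WT and 40.3, 94.3, 56.1 and 57.1 in gpc-A1. This was 4.46-fold lower, again with no overlap (log2 fold change -2.16, SE 0.22, edgeR adjusted P = 0.000208). TaNAAT1 on 1AL had 66.3, 84.4, 89.9 and 111 in WT and 6.11, 34.9, 11.6 and 11.8 in gpc-A1. It was 5.24-fold lower (log2 fold change -2.39, SE 0.37, edgeR adjusted P = 0.0068), with gpc-A1 replicate 2 the highest of its group. DMAS catalyses the last step to deoxymugineic acid. TaDMAS1 on 4BL had 883 ± 70.3 normalized counts in WT leaves and 1073 ± 161 in gpc-A1 and was not DE (log2 fold change 0.28, SE 0.13, edgeR adjusted P = 0.361).

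The ZIFL transporters are a plant family that includes, in rice and barley, exporters of mugineic acid chelators. TaZIFL7 on 5AL had 421, 473, 342 and 334 normalized counts in WT and 184.6, 245, 186 and 166 in gpc-A1. The groups did not overlap and the level was 2-fold lower (SE 0.16 on the log2 scale, edgeR adjusted P = 0.00865). Its 5BL copy had 108 ± 21.8 in WT and 76.5 ± 24.9 in gpc-A1 and was not DE (log2 fold change -0.49, SE 0.23, edgeR adjusted P = 0.364). TaZIFL3 on 4BS had 926, 972, 1097 and 1079.6 in WT and 241, 526, 897 and 436.9 in gpc-A1. All 4 gpc-A1 libraries were below the WT range but spread widely, and the locus did not pass (log2 fold change -0.95, SE 0.29, edgeR adjusted P = 0.144). The 10 ZIFL loci had a median log2 fold change of -0.26, with 6 negative and 4 positive.

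YSL proteins carry metal complexes of nicotianamine and deoxymugineic acid into cells. None of 15 YSL loci passed the 4 tests, and their median log2 fold change was -0.17 (range -0.42 to 0.53). TaYSL16 on 2BL had 2361 ± 606 normalized counts in WT leaves and 2067 ± 301 in gpc-A1 (log2 fold change -0.19, SE 0.18, edgeR adjusted P = 0.697). At an unadjusted edgeR p under 0.05 were 3 of the 15 YSL loci, 2 of them lower in gpc-A1, beside 14.4% of all loci tested. TaYSL9 on 2AL had 895, 1258, 882 and 944 in WT and 571, 808, 791 and 825 in gpc-A1 (log2 fold change -0.41, SE 0.16, edgeR adjusted P = 0.261). TaYSL6 on 2AL had 499.8, 588, 524.8 and 490.5 in WT and 376, 338, 476 and 382.8 in gpc-A1 (log2 fold change -0.42, SE 0.13, edgeR adjusted P = 0.165). The locus with higher levels in gpc-A1 was TaYSL12 on 2BL. It had 628, 558, 559 and 507 in WT and 743.2, 632, 800.1 and 1073 in gpc-A1 (log2 fold change 0.53, SE 0.16, edgeR adjusted P = 0.134). The gpc-A1 libraries were all above WT for this locus, while its 2AL copy had overlapping groups.

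The ZIP proteins move Zn, Fe and other divalent metals into the cytoplasm. Of 22 ZIP loci 18 had a negative log2 fold change, the family median was -1.38, and 10 were DE. TaZIP13-like2 on 2AS had 3723, 4395, 4062 and 5697 normalized counts in WT and 204, 547, 606 and 568 in gpc-A1. The groups were far apart, with a 9.28-fold difference (log2 fold change -3.21, SE 0.30, edgeR adjusted P = 9.61e-05). Its 2BS copy had 674.2, 959, 869 and 1161 in WT and 51.3, 116.1, 95.3 and 118 in gpc-A1. Here the difference was 9.55-fold (log2 fold change -3.26, SE 0.25, edgeR adjusted P = 1.93e-05), so that both copies of the gene moved by nearly the same amount. In both copies gpc-A1 replicate 1 was the lowest library.

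TaZIP13-like3 on 2BL had 1302, 1634, 1397 and 2119.7 normalized counts in WT and 34.2, 126, 147 and 214 in gpc-A1. The locus was 12.3-fold lower in gpc-A1 and its groups were well separated (log2 fold change -3.63, SE 0.38, edgeR adjusted P = 0.000302). Its 2AL copy had 113, 175, 128 and 99.8 in WT and 112, 104, 65.6 and 90.5 in gpc-A1. These ranges overlapped (log2 fold change -0.46, SE 0.21, edgeR adjusted P = 0.342). The 2AL copy therefore gave 7.64% ± 2.22 (SD, n = 4) of the reads of the pair in WT and 45.6% ± 21.9 in gpc-A1.

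TaZIP3 on 2AL had 95.5, 124, 124.7 and 115 normalized counts in WT and 8.56, 26.2, 22.2 and 17.7 in gpc-A1. It was 6-fold lower with no overlap (log2 fold change -2.58, SE 0.25, edgeR adjusted P = 0.000127). TaZIP3 on 2BL had 126.7, 184.8, 97.8 and 112 in WT and 12.2, 43.7, 34.9 and 33.5 in gpc-A1, a 4.09-fold difference (log2 fold change -2.03, SE 0.30, edgeR adjusted P = 0.00417). As for TaZIP13-like2, gpc-A1 replicate 1 was the lowest library of both copies.

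The TaZIP10 and TaZIP10-like1 pairs of chromosome group 7 were DE in all 4 copies. TaZIP10 on 7AL had 530.97, 511, 588 and 755 normalized counts in WT and 169, 189, 268 and 291.3 in gpc-A1, and it was 2.60-fold lower (log2 fold change -1.38, SE 0.19, edgeR adjusted P = 0.00266). TaZIP10 on 7BL had 522, 437.2, 494 and 668 in WT and 127.1, 172, 276 and 243 in gpc-A1 (log2 fold change -1.38, SE 0.22, edgeR adjusted P = 0.00755). The 2 copies of TaZIP10 thus fell alike, and neither overlapped between groups. TaZIP10-like1 on 7AL had 175, 239, 224 and 279.2 in WT and 24.4, 48.9, 58.2 and 76.8 in gpc-A1, a 4.38-fold difference (log2 fold change -2.13, SE 0.26, edgeR adjusted P = 0.000996). TaZIP10-like1 on 7BL had 414, 525.2, 672 and 1006 in WT and 62.3, 106, 198.97 and 192.9 in gpc-A1, a 4.69-fold difference (log2 fold change -2.23, SE 0.34, edgeR adjusted P = 0.00632).

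TaZIP7 on 1BS had 1105, 1085, 1184 and 1403 normalized counts in WT and 254, 375, 629.7 and 539 in gpc-A1. It was 2.66-fold lower without overlap (log2 fold change -1.41, SE 0.23, edgeR adjusted P = 0.0092). TaZIP7 on 1AS had 468.6, 569, 590.0 and 796 in WT and 140.6, 130.1, 339 and 312 in gpc-A1. Its difference was nearly the same (log2 fold change -1.40, SE 0.29), but its edgeR adjusted P was 0.0333 and it was not called. When the replicate number entered the fit as a block this copy passed, with an edgeR adjusted P of 0.00261. TaZIP5 on 4BL had 49.7, 75.5, 42.7 and 134.7 in WT and 2.44, 3.49, 4.23 and 16.7 in gpc-A1. It was 11.3-fold lower (log2 fold change -3.49, SE 0.52, edgeR adjusted P = 0.00473) and passed edgeR and DESeq2 but not all 4 tests, with replicate 4 the highest library of each genotype.

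The ZIP loci that stayed near 0 came from TaZIP6, TaZIP11 and TaZIP15. TaZIP6 had log2 fold changes of -0.05 (1AS) and -0.08 (1BS), TaZIP11 of 0.01 (1AS) and -0.08 (1BS), and TaZIP15 of 0.00 (6AS) and -0.06 (6BS), each with an SE of 0.11 to 0.15. TaZIP14 was the ZIP gene with a positive value in both copies, 0.28 on 3AS (SE 0.16, edgeR adjusted P = 0.453) and 0.33 on 3B (SE 0.13, edgeR adjusted P = 0.277).

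NRAMP, HMA and VIT proteins move metals across plasma and organelle membranes, and FRO proteins reduce Fe3+ to Fe2+ before uptake. Their 17 loci held no DE locus, with family medians of -0.09 for 6 NRAMP loci, -0.07 for 6 HMA loci, 0.02 for 3 VIT loci and 0.01 for 2 FRO loci. TaHMA1 on 7AL, a P-type metal ATPase, had 1270.4, 1417, 1181 and 1156 normalized counts in WT and 739.5, 855, 935 and 879 in gpc-A1. All gpc-A1 libraries were below WT, but the value did not pass (log2 fold change -0.56, SE 0.12, edgeR adjusted P = 0.0482). TaHMA2-like on 7AL, with the lowest log2 fold change of these families, had 68.2, 108, 59.6 and 64.9 in WT and 23.2, 73.3, 23.3 and 15.7 in gpc-A1 (log2 fold change -1.10, SE 0.39, edgeR adjusted P = 0.221). The groups overlapped through gpc-A1 replicate 2 alone, and without that library the locus passed the 4 tests. TaNRAMP2 on 4AS had 927 ± 287 in WT and 537 ± 135.1 in gpc-A1 (log2 fold change -0.79, SE 0.22, edgeR adjusted P = 0.11). TaVIT2 on 5BL had 479, 1405, 153 and 228 in WT and 506, 346, 140.8 and 509.8 in gpc-A1, and was too variable within WT to place (log2 fold change -0.59, SE 0.58, edgeR adjusted P = 0.702). TaFRO1 on 2BL had 30272 ± 4387 in WT and 28852 ± 10334 in gpc-A1 (log2 fold change -0.06, SE 0.25, edgeR adjusted P = 0.942).

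**Figure D3:**
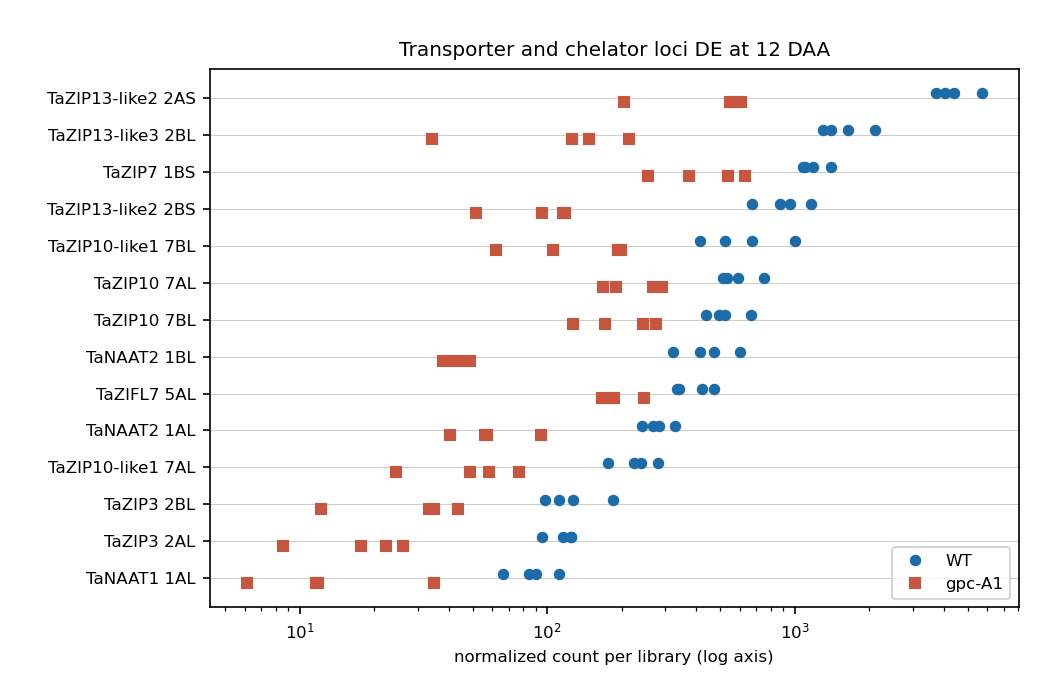
Normalized counts (x axis, log scale) in each WT (circles) and gpc-A1 (squares) library at 12 DAA for the 14 DE transporter and chelator loci, sorted by WT level. At each locus all 4 gpc-A1 points lie below all 4 WT points, as the groups lie apart at all 342 DE loci. Levels of different loci are not scaled for length.

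Among the 28 pairs of A- and B-genome copies with both loci placed, 5 had both copies DE, 3 had 1 copy DE and 20 had none. The pairs with 1 copy DE were TaZIP13-like3, TaZIP7 and TaZIFL7. In TaNAAT2, where both fell, the 1AL copy gave 38.6% ± 3.56 (SD, n = 4) of the reads of the pair in WT and 57.6% ± 9.54 in gpc-A1. In TaZIP13-like2 the 2AS share was 83.1% ± 1.15 in WT and 82.9% ± 2.68 in gpc-A1. Reads that fit several positions were left out by the authors, so near-identical stretches of 2 copies are not represented in either count.

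The 14 calls did not rest equally on the replicates. TaNAAT2 (1AL and 1BL), TaZIP3 2AL, TaZIP13-like2 (2AS and 2BS), TaZIP13-like3 2BL and TaZIP10-like1 7AL were DE in all 8 fits that each left out 1 library. The other 7 were DE in 1 to 5 of those fits. Of the 14, the number kept was 9, 8, 8 and 7 without WT replicates 1 to 4 and 11, 10, 11 and 8 without gpc-A1 replicates 1 to 4. TaNAAT1, TaZIFL7 and TaZIP10-like1 7BL were each kept in 1 of the 8 fits.

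The same genotypes at HD and at 22 DAA share no library with the 12 DAA comparison. None of 75375 loci passed the 4 tests at either time. At HD edgeR called 0 loci, DESeq2 44 (0.0584%), and 5543 had an unadjusted edgeR p under 0.05 (7.35%). At 22 DAA edgeR called 0, DESeq2 129 (0.171%), and 4022 had such a p (5.34%). In 1 of the gpc-A1 libraries at HD (replicate 1) the genotype field and the title of the labels disagree, and without it 0 loci passed as well (edgeR 0, DESeq2 38, 0.0504%). Of the 223 loci lower at 12 DAA, 81 were lower in gpc-A1 with no overlap between groups at 22 DAA (36.3%, against 1.58% of all loci), and 11 at HD (4.93%, against 2.33%). Of the 119 higher loci, 14 were higher with no overlap at 22 DAA (11.8%, against 1.52%) and 7 at HD (5.88%, against 2.53%). The median log2 fold change of the 223 lower loci was -0.55 at HD and -1.34 at 22 DAA, and that of the 119 higher loci was 0.39 and 0.68.

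Among the 14 family loci, 13 did not overlap between genotypes at 22 DAA and were lower in gpc-A1, beside 1.58% of all loci. At HD 0 of the 14 did so, beside 2.33% of all loci, a share at which 0 of 14 is unremarkable. TaZIP13-like2 2AS had mean levels of 277.4 in WT and 116.8 in gpc-A1 at HD (normalized counts), 4469 and 481 at 12 DAA, and 3207.4 and 178 at 22 DAA. TaZIP10-like1 7BL, the locus that overlapped at 22 DAA, had 4.57 and 7.23 at HD, 654 and 140.0 at 12 DAA, and 647.3 and 319.6 at 22 DAA. Thus the WT level of both loci was far higher at 12 DAA than at HD, and the level in gpc-A1 remained below it. TaZIFL7 5AL behaved otherwise, with 397.2 and 428 at HD, 392 and 196 at 12 DAA, and 249.3 and 128 at 22 DAA. The WT comparison of HD with 12 DAA, which shares the 4 WT libraries at 12 DAA, called 7 of the 14, beside 2.21% of all loci. The same comparison within gpc-A1 called 1 of the 14, TaZIP10-like1 7BL, beside 0.288% of all loci. An interaction test of genotype with time passed for 0 of the 70 family loci, both for 12 DAA against HD (18 of all loci, 0.0239%) and against 22 DAA (0 of all loci), at an edgeR adjusted P of 0.01 or less.

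**Figure D4:**
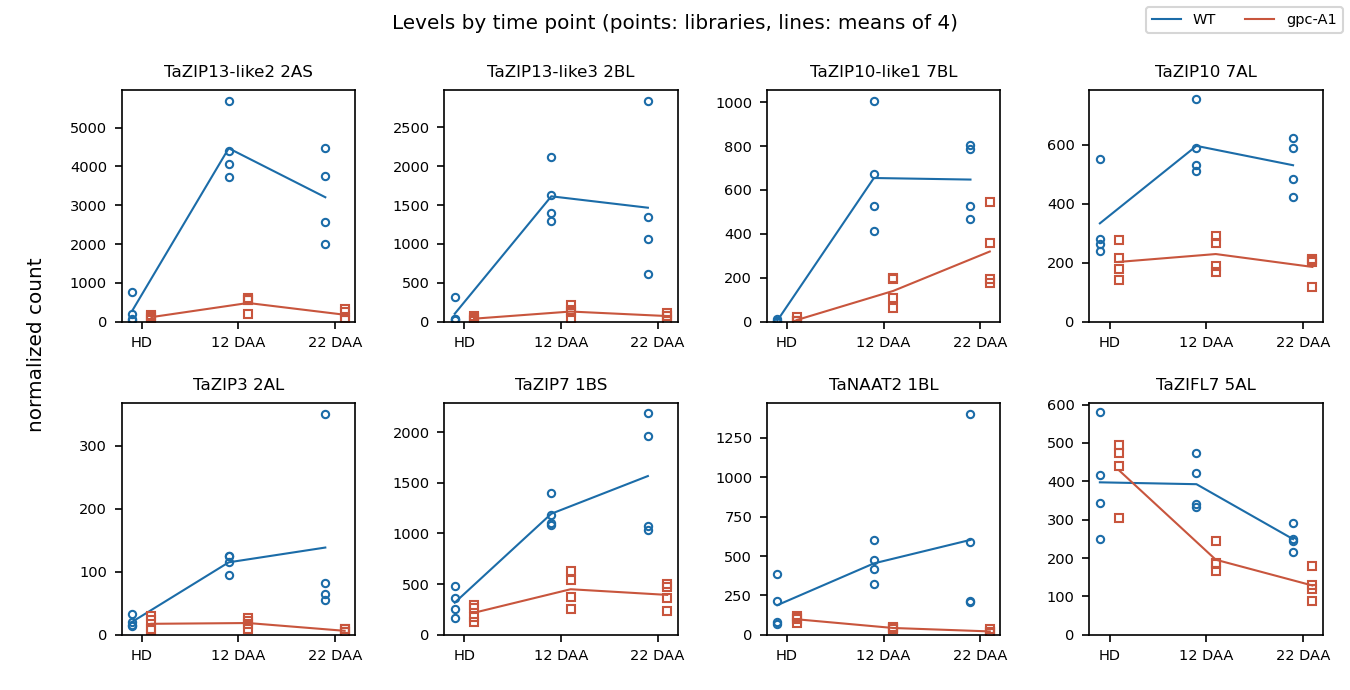
Normalized counts (y axis, linear, from 0) in each WT (blue) and gpc-A1 (red) library at HD, 12 DAA and 22 DAA for 8 of the DE loci, with lines through the means of 4 libraries. At 12 DAA every gpc-A1 point lies below every WT point, which holds for every DE locus lower in gpc-A1. At HD the genotypes overlap at all 8 loci.

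In the double mutant at 12 DAA, compared with the same 4 WT libraries, all 14 loci were also DE and lower, beside 1.01% of all loci. The means in gpc-A1 and in the double mutant were 481 and 454.4 for TaZIP13-like2 2AS, 43.2 and 45.7 for TaNAAT2 1BL, and 130.2 and 106 for TaZIP13-like3 2BL. Both comparisons use the same controls and are not independent.

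Protein descriptions were at hand here for a subset of loci only, which took 39.7% of the WT and 38.2% of the gpc-A1 counts. None of these annotated loci was DE by the 4 tests, beside 0.454% of all loci tested. By edgeR alone 0 passed, with a smallest adjusted P of 0.0109, beside 0.508% of all loci. By DESeq2 21 passed, beside 1.68% of all loci. The annotated loci were abundant, with a median mean count of 5712, and 2 DE loci had a higher-group mean above that median. At so small a share of all loci, 0 calls in this subset says little about its gene classes. At an unadjusted edgeR p under 0.05 were 150 (19.2%, beside 14.4% of all loci), 95 lower in gpc-A1 and 55 higher. Their median log2 fold change was -0.13, with 529 loci negative and 253 positive. The values of the groups below are therefore descriptions of loci that did not pass.

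Loci of chlorophyll breakdown, the first visible step of senescence, were all 5 negative, with a median log2 fold change of -0.52. Of these, a locus whose description names pheophorbide a, the chlorophyll product whose ring is opened by pheophorbide a oxygenase (4AL, contig 7029060, bases 1 to 3441), had 3616, 4983, 4084 and 3666 normalized counts in WT and 1606, 2541, 2771 and 2202 in gpc-A1. The groups did not overlap (log2 fold change -0.84, SE 0.18, edgeR adjusted P = 0.0399), and the locus passed in the fit that took replicate numbers as blocks (edgeR adjusted P = 0.00834). Among 11 loci of chlorophyll synthesis the median was -0.07. The protochlorophyllide reductase A locus on 2BL (contig 7951021) had 6293, 1819, 4889 and 3539 in WT and 18085, 12327, 12953 and 3489.6 in gpc-A1. There 3 gpc-A1 libraries lay above all WT libraries and replicate 4 within their range (log2 fold change 1.51, SE 0.44, edgeR adjusted P = 0.131).

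The photosynthesis groups had medians slightly below 0. These were -0.12 for 21 light-harvesting loci (20 negative), -0.16 for 41 photosystem and electron transport loci (37 negative) and -0.19 for 32 Calvin cycle loci (26 negative). Most annotated loci were negative (529, with 253 positive), at a median of -0.13. The light-harvesting median was thus no lower than that of all annotated loci. Whether any group departed from this background was not tested. Photorespiration loci were negative in 23 of 24, with a median of -0.25, and carotenoid loci in 9 of 9, with a median of -0.28. A Rubisco activase locus on 4BS (contig 4910205) had 19317, 19106, 21241 and 10199 normalized counts in WT and 4683, 9354, 10741 and 9941 in gpc-A1. Its groups overlapped only through WT replicate 4 (log2 fold change -1.01, SE 0.27, edgeR adjusted P = 0.103). Protease groups, which include the vacuolar enzymes of protein remobilization, had medians of -0.04 over 21 vacuolar and other loci and -0.17 over 13 plastid and mitochondrial loci. Nitrogen assimilation and amino acid loci had a median of 0.14 over 12.

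In the sugar group, the sucrose:fructan 6-fructosyltransferase locus on 4AL (contig 7149029), an enzyme of fructan synthesis, had 21732, 20879, 21692 and 18964 normalized counts in WT and 2629, 12014, 9792 and 3506 in gpc-A1. The WT libraries were close together and all above the gpc-A1 libraries, which spread widely (log2 fold change -1.57, SE 0.40, edgeR adjusted P = 0.08). At 22 DAA this locus had 5961 ± 5106 in WT and 15514 ± 9485 in gpc-A1. A metallothionein locus on 3AS (contig 3303945), of a family of small metal-binding proteins, had 1829, 2154, 1349.6 and 1833 in WT and 5171, 6642, 2890.4 and 2996 in gpc-A1. It lay above WT in all 4 gpc-A1 libraries (log2 fold change 1.31, SE 0.26, edgeR adjusted P = 0.0281). A receptor-like kinase locus on 1AS (contig 3274088) also lay above WT in all 4, with 1622 ± 284 in WT and 3211 ± 964 in gpc-A1 (log2 fold change 0.98, SE 0.20, edgeR adjusted P = 0.0297). A defence locus described as disease resistance protein RGA3 on 7BL (contig 6733535) had 4668 ± 656 and 7261 ± 884 (log2 fold change 0.64, SE 0.15, edgeR adjusted P = 0.0669).

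The 5 DE loci with the highest mean counts were all lower in gpc-A1, and the files used here give no description for them. A 2BL locus (contig 7971302, bases 3009 to 7466) had 6703, 8346, 6956 and 12680.5 normalized counts in WT and 226, 684, 801 and 724 in gpc-A1. It was 14.3-fold lower (log2 fold change -3.83, SE 0.36, edgeR adjusted P = 0.000117), and its means at HD were 839.7 in WT and 395 in gpc-A1. A 2AS locus (contig 5188336, bases 3758 to 7278) had 7514, 8758, 8997 and 6762 in WT and 912, 979.6, 1126 and 935 in gpc-A1. The difference was 8.09-fold between groups that were tight at 12 DAA (log2 fold change -3.02, SE 0.16, edgeR adjusted P = 7.13e-07). At the other times its groups were not tight and overlapped. At HD it ranged from 1233 to 7078 in WT and from 1303 to 3397 in gpc-A1. At 22 DAA the ranges were 937 to 6270 and 630 to 2769. A 3B locus (contig 10635320) had 4872 ± 1022 in WT and 996 ± 425 in gpc-A1 (log2 fold change -2.29, edgeR adjusted P = 0.00142). A 4AS locus (contig 6009291) had 3361 ± 78.2 and 1989 ± 68.3 (log2 fold change -0.76, edgeR adjusted P = 0.00622), and it lost its call in all 8 fits that each left out 1 library. A second 2AS locus (contig 5264433) had 3456 ± 267.1 and 1789 ± 179 (log2 fold change -0.95, edgeR adjusted P = 0.0029) and kept its call in 3 of those fits.

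Some of the largest changes were at loci well read in one of the groups compared and nearly silent in the other. Others were still read in the low group. A 7AL locus, for example, had levels of 11.8 to 12.8 on the log2 scale in WT and 6.53 to 8.27 in gpc-A1. Of the DE loci, 49 were at least 16-fold lower by the fitted value and 34 at least 16-fold higher. For 23 of the lower and 18 of the higher DE loci, the 4 libraries of the low group together held no more than 3 reads. Fitted fold changes of such loci depend on the prior count, so levels are given instead. Among the 10 largest falls, 5 loci lay on 4 contigs of 1AS. On contig 3295399 the locus at bases 3916 to 5622 had 473, 419, 426 and 501 normalized counts in WT and 0, 0.873, 2.12 and 2.95 in gpc-A1 (edgeR adjusted P = 2.67e-08). Its neighbour at bases 2626 to 3806 had 195, 174, 211 and 189 in WT and 0, 0.873, 0 and 0.984 in gpc-A1 (edgeR adjusted P = 6.86e-08). The locus on contig 3282156 had 292 ± 53.6 in WT and at most 2.12 in gpc-A1. All of these were close in level over the WT replicates.

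In other falls the WT libraries were less alike. A 7AL locus (contig 4432422, bases 149 to 653) had 1147, 1311, 1486 and 2833 normalized counts in WT and 3.67, 19.2, 28.6 and 51.2 in gpc-A1, a 64.9-fold difference (log2 fold change -6.02, SE 0.49, edgeR adjusted P = 3.75e-05). A 6AL locus (contig 5814182) had 118, 129.7, 148 and 289 in WT and 1.22, 0, 2.12 and 1.97 in gpc-A1. Both had WT replicate 4 as the highest library.

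Among the largest rises, a 1AS locus (contig 3256059, bases 2448 to 5827) had 0.974, 0.889, 0 and 0.379 normalized counts in WT and 336, 168, 189 and 146 in gpc-A1 (edgeR adjusted P = 1.38e-06). Its means at HD were 0.771 in WT and 0.254 in gpc-A1, and at 22 DAA 0.439 and 0, so that it was on in the gpc-A1 libraries of 12 DAA and in no other of these groups. In the double mutant at 12 DAA, which carries the same GPC-A1 mutation, its mean was 0.291. A 2BS locus (contig 5186779, bases 3433 to 7424) had 1.95, 3.55, 1.12 and 1.52 in WT and 549, 489, 394 and 552 in gpc-A1 (edgeR adjusted P = 1.06e-08). Unlike the 1AS locus it was well read at HD, with means of 265 in WT and 505 in gpc-A1. A 2BL locus (contig 7962402) had 15.8 ± 2.14 in WT and 643 ± 48 in gpc-A1, a 39.5-fold rise (log2 fold change 5.30, SE 0.15, edgeR adjusted P = 7.84e-09). Its means at HD were 582 and 784, with WT replicate 1 at 15.6 and the other WT libraries at 370 to 1148. A 5AS locus (contig 1468630) had 4.37 ± 2.85 in WT and 222 ± 51.8 in gpc-A1, and 319 and 295 at HD.

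Many of these loci also differed between libraries of 1 genotype at the other times, as was seen after the values were known. Each library was placed on the side of the nearer of the 12 DAA group levels. Of the 34 large rises, the WT libraries at 22 DAA fell on both sides for 33, with 24, 3, 7 and 34 loci on the side of WT at 12 DAA in replicates 1 to 4. The WT libraries at HD fell on both sides for 24. Of the 49 large falls, the WT libraries at 22 DAA fell on both sides for 26 and all on the WT side for 23, and those at HD fell on both sides for 16. The 1AS loci of contigs 3282156 and 3295399 had 236.5, 204.6 and 496.8 normalized counts in WT replicate 4 at 22 DAA and at most 3.10 in the other WT libraries at HD and 22 DAA. The gpc-A1 libraries of these times were not uniform either, with up to 11 of the falls (HD replicate 4 and 22 DAA replicate 3) and up to 8 of the rises (22 DAA replicate 3) on the side of WT. All 8 of them lay on the gpc-A1 side at 34 of the 49 falls and 21 of the 34 rises. The 12 DAA libraries lie on their own sides by the way these loci were chosen. What these differences between libraries go with was not tested.

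**Figure D5:**
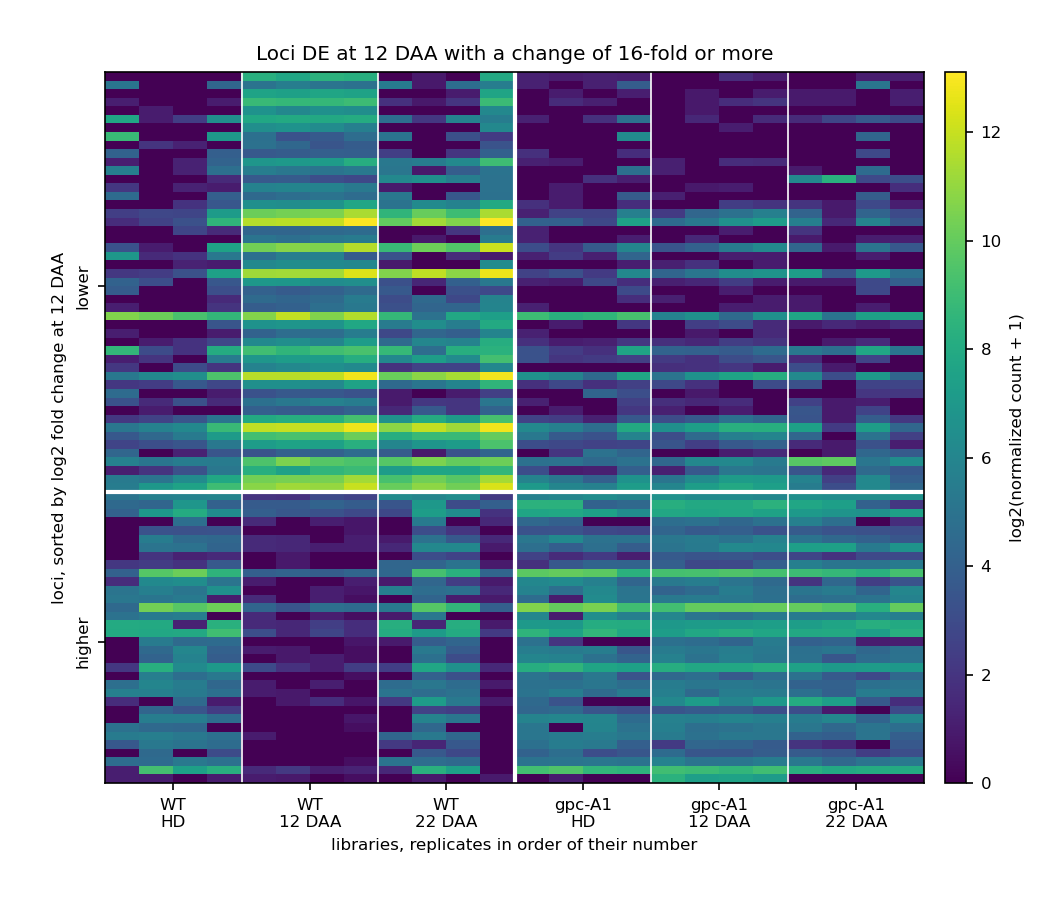
Colour gives log2(normalized count + 1) of each DE locus with a change of at least 16-fold (rows, the 49 falls above the 34 rises) in each WT and gpc-A1 library at the 3 times (columns, replicates in order of number). The WT libraries at 22 DAA fall on both sides of the 12 DAA midpoint at 26 of the falls and 33 of the rises.

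DE loci were found on 26 of 27 chromosome arms and not on 4BS, where 0 of 1969 loci passed. Arm 2AS held the most, with 43 of 2263 loci (1.90%, 23 lower and 20 higher), beside 0.484% over all loci compared. Arm 1AS followed by share, with 17 of 1620 (1.05%, 11 lower and 6 higher). On 7AL 16 of 17 DE loci were lower, and the TaZIP10 and TaZIP10-like1 copies are among them. In the A genome 0.572% of 33769 loci were DE and in the B genome 0.404% of 36861. The 342 loci lay on 323 contigs, 18 of which carried more than 1 DE locus, and the direction was mixed on 1 of these.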

How the data were processed

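The authors sequenced flag leaf RNA as 50-bp single reads and mapped them, using GSNAP, to the Chinese Spring contigs of both genomes, A and B, on which transcribed loci were defined. Raw counts per locus from HTSeq are the unit the authors deposited, and reads fitting several positions had been left out. Counting by strand is not stated, so overlapping genes cannot be told apart.

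The table was kept to loci whose reads numbered above 3 in 2 or more replicates of any of the 9 groups (75375 loci), and p-values were adjusted over all of these (Benjamini-Hochberg). The 4 tests were the edgeR 4.0.16 quasi-likelihood test with TMM scaling (adjusted P of 0.01 or less), the DESeq2 1.42.0 Wald test (0.01), a Mann-Whitney-Wilcoxon rank test (0.05) and the equal-variance parametric test of the methods (0.01), the last 2 on normalized counts, which are counts scaled by size factors (median of ratios, over the 36 libraries). DESeq2 stood in for DESeq. R 4.3.3 and Python 3.11.15 were used. Fold changes are edgeR values of gpc-A1 over WT, and each SE was derived from the quasi-likelihood F. The rule was tested on simulated data for WT against gpc-A1 at 12 DAA over 75375 loci, where, among changed loci with a mean of at least 50, it recovered 49 of 100 changed 2-fold and 96 of 100 changed 4-fold, with 2 false calls. The simulation gave both groups the same spread at a locus, while the data had 0.244 in gpc-A1 against 0.148 in WT. These counts are therefore not error rates of the real comparison.

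Family names came from the study's list of Zn and Fe transporters, matched to loci by identifier (3) or by chromosome arm and WT level at HD and 22 DAA (67), and 44 of 114 entries stayed unmatched. Protein descriptions of 782 loci came from the supplementary material. Its columns of fold changes and tests were not used. Loci named in the text were the 10 largest falls and rises among DE loci with a mean of at least 50, any DE annotated locus, DE family loci with their homoeologs, the member of each family with the highest WT level, the GPC loci, the member of each annotated group with the smallest p and the 5 DE loci with the highest mean. Family loci outside that rule (TaZIP5, TaZIP6, TaZIP11, TaZIP14, TaZIP15, TaYSL6, TaYSL9, TaYSL12, TaHMA2-like and the second TaNAS3 copy) were named after their values were seen. The groups, lists and members were chosen with earlier results of these data known.

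The 9 samples of a replicate number were sequenced together, so numbers mark a shared batch. Over 33446 loci, deviations from the group means of same-numbered WT and gpc-A1 libraries correlated at 0.0545 to 0.331 (mean 0.191), and those of other numbers at -0.402 to 0.220 (mean -0.0632). Replicates were separate plants. Alternatives covered filters, scaling, tools, the samples fitted, the block, thinning of WT replicate 4 and leaving out each library.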

Additional observations from a re-analysis of the deposited data

Results flagged for a closer look

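Of 146 groups of 4 libraries examined for a sample far from the others, 8 held one, and chance flags about 1 in 20 groups. Among the family and GPC loci, TaZIP13-like2 2AS had 204 normalized counts in gpc-A1 replicate 1 against 547 to 606 in the others. The GPC1 locus on 6AS had 5851 in WT replicate 2 against 3776 to 3967, and GPC-A2 had 554.4 in gpc-A1 replicate 2 against 308 to 334. The 1AS receptor-like kinase locus (contig 3274088) had 4642 in gpc-A1 replicate 4 against 2582 to 2914. The 2AS rise on contig 5307939 had 562 in gpc-A1 replicate 1 against 1028 to 1064. In 3 silent groups the sample apart rested on very few reads: 0.873 in gpc-A1 replicate 2 at 1AS contig 1353009, 1.06 in gpc-A1 replicate 3 at 1AS contig 3283214 and 0.759 in WT replicate 4 at 2AS contig 5193196, with the other libraries of each group at 0.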

How the results depend on the processing

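The DE loci, lower loci, higher loci and family loci numbered 170, 106, 64 and 6 with 1 spread estimated over all 36 libraries, and 1270, 645, 625 and 18 with DESeq2 alone, where 50.8% were lower in place of 65.2%. With edgeR's own expression filter 9 family loci were DE, and the cause was not tested. Leaving out 1 library at a time gave 195 to 444 DE loci, 130 to 246 lower, 59 to 198 higher and 7 to 12 family loci. The other settings (members only, no filter, other scaling factors, edgeR alone, exact rank test, 12 libraries, block, thinning) moved these 4 counts by less than 1.5 times. With the replicate block 441 loci were DE, 289 lower and 152 higher, and 15 family loci. Among the loci named the block gained TaZIP7 1AS and the 4AL pheophorbide locus, and it changed no other call. None of the 73 loci of the naming rule changed sign under any of these settings. With 4 libraries a group and the wider spread in gpc-A1, many 2-fold changes would be missed, and loci of few reads are the least certain.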

Other observations

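One locus of 1AS (contig 3314486, bases 1337 to 4019) was singled out after its values were seen. It had 3343, 10898, 5039 and 3429 normalized counts in WT at 12 DAA and 12.2, 10.5, 9.53 and 8.86 in gpc-A1, a 549-fold difference (log2 fold change -9.10, SE 0.48, edgeR adjusted P = 8.6e-07). It passed edgeR, DESeq2 and the rank test and was left out of the 342 DE loci by the equal-variance test alone (p = 0.0191, 4 libraries a group, parametric and not a permutation test). Its WT libraries differ 3.26-fold among themselves. At 22 DAA its mean was 4474 ± 2781 (SD, n = 4) in WT and 215.8 ± 131 in gpc-A1, and in the double mutant at 12 DAA it was 20.8 ± 11.9. Of the 41 loci that passed edgeR but not all 4 tests, 38 failed that test and 3 failed DESeq2.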
